A study of Mus musculus with 6 samples.

Results

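Interferon receptors and interferon-stimulated genes were read in muscle stem cells (MuSCs) sorted from injured mouse muscle, 42 genes of the 49671 that the expression tables list. The genes were taken by symbol from a list of 4 receptor chains and 38 genes that carry or answer the interferon signal, and all 42 symbols were found. RNA came from 3 mice treated with resolvin D1 (RvD1), a lipid mediator that promotes the resolution of inflammation, and from 3 mice given vehicle. All were female C57BL/6 mice aged 4 to 6 months whose tibialis anterior (TA) muscles had each received 50 μL of 1.2% BaCl2, which kills myofibers and spares MuSCs. RvD1 was injected into the peritoneum at 100 ng per day in saline with 0.1% ethanol, and control mice received the saline with ethanol alone. The 2 TA muscles of a mouse were pooled at day 3, and cells that carried β1-integrin and CXCR4 but not Sca-1, CD45, CD11b, or Ter119 (nor CD31, per the labels) were sorted. Each mouse gave 1 library, so a difference between groups is set against the spread among mice. There was no uninjured or interferon-treated library among those analysed here.

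Interferons are cytokines that put cells into an antiviral state. Type I interferons bind the receptor chains encoded by Ifnar1 and Ifnar2, and interferon-γ binds those encoded by Ifngr1 and Ifngr2. Janus kinases on the receptors then phosphorylate STAT proteins. A complex that holds STAT2 and IRF9 binds the interferon-stimulated response element, whereas STAT dimers bind the gamma-activated site. The induced genes encode RNA sensors, proteins that block viral entry or translation, and brakes on the pathway itself, and many are kept at a low level in cells without infection.

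Total expected counts, the reads that RSEM assigned to genes, ranged from 16148026 to 28149176 per library. A mean of 3 counts, the floor used here, equals 0.107 to 0.186 CPM (counts scaled to a common library size) and covers counting error only. The labelled cell type was checked with 10 MuSC markers, which summed to 2090 to 2650 TPM (RSEM transcript abundance scaled for gene length and library size) in each library. RvD1 replicate 1 stood apart, since 30.6% of all 14494 genes tested had their highest level there and 29.5% their lowest. The sort was to remove leukocytes. The sum of 15 leukocyte markers was 51.5 to 74.7 TPM with RvD1 and 68.4 to 115 TPM with vehicle, and none was at 0 TPM in any library. The fold change was below 0 on the log2 scale for 14 of the 15, where it was for 46.5% of all genes. In edgeR 4 of the 15 were lower with RvD1 at an unadjusted p under 0.05, where 1.64% of all genes were. Each of these 4 had an adjusted p of 0.971 from edgeR. Their part in the results was not tested. Fewer cells of a type and less RNA per cell cannot be told apart in such bulk samples.

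Transcripts of the receptors and of most interferon-stimulated genes were present in every mouse, at very different levels. Receptor transcripts lay close together, at a mean of 37.0 TPM for Ifnar2, 39.7 TPM for Ifngr2, 46.0 TPM for Ifnar1, and 49.8 TPM for Ifngr1. Levels of the 42 genes ranged from 0.318 TPM for Oas3 to 1180 TPM for Ifitm3, with a median of 13.8 TPM, and 28 of them exceeded 10 TPM. Ifitm3 and Ifitm2, which encode membrane proteins that stop viruses from fusing with the cell, were the most abundant. Ifitm2 was at 373 TPM, and the next gene, the transcription factor Irf1, was at 66.1 TPM. Below 2 TPM lay Oas1a, Mx2, Mx1, Oas2, and Oas3. The annotation lists Mx2 as a polymorphic pseudogene, and C57BL/6 mice are known to carry Mx1 and Mx2 alleles that give no functional protein. Transcripts of the 10 interferon ligand genes that were read, among them Ifnb1 and Ifng, lay below the floor of a mean of 3 counts. Of these, 8 had 0 counts in every library, while Ifna4 and Ifnl3 each had a mean of 0.167 counts.

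**Figure D1:**
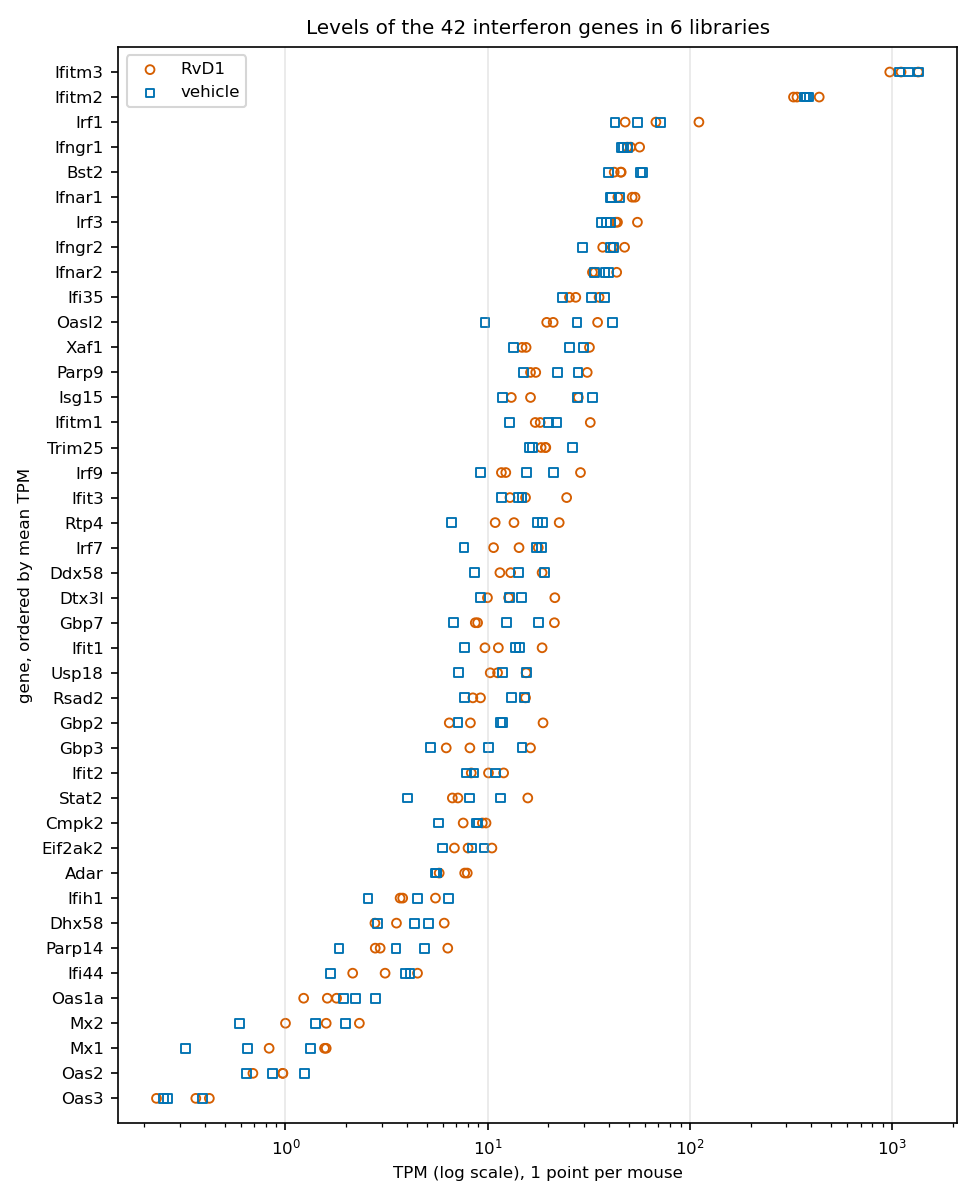
TPM of each of the 42 genes on a log axis, with 1 circle per RvD1-treated mouse and 1 square per vehicle-treated mouse, ordered by the mean over 6 libraries. Ifitm3 (1180 TPM) and Ifitm2 (373 TPM) stand above the rest, and circles and squares are mixed along most rows.

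RefSeq promoter windows (GRCm38.p6, 250 bases before to 50 after the start site) were matched by symbol for 34 of the 42 genes. The core of the interferon-stimulated response element was searched as GAAANNGAAA and the gamma-activated site as TTCNNNGAA, each on both strands. The first was found for 16 of the 34 genes (47.1%), against 3.99% of all 27025 genes with a window. The second was found for 11 of the 34 (32.4%), against 9.55% of all genes. Matches are a description of letters and were not tested for binding. The stretches shown are those of the 4 genes with the highest TPM among the 16, and that of Irf1, which held the second motif and not the first. Capitals mark matches to the first motif, overlapping ones included, and in Irf1 the match to the second. Left partly in lower case are matches to the second motif that overlap the first, TTCTGAGAA in Ifitm3 and TTCCAGGAA in Bst2.
Ifitm3: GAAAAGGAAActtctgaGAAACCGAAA
Ifitm2: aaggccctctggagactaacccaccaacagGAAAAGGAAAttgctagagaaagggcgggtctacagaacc
Bst2: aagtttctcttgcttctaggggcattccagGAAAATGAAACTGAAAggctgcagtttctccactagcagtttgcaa
Isg15: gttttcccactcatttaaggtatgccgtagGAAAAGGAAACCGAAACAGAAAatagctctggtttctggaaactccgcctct
Irf1: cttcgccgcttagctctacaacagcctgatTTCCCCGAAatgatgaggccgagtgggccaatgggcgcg

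The stretch of Ifitm3 lies at chr7:141010716-141010742 and that of Ifitm2 at chr7:140955968-140956037, both on the minus strand. Those of Bst2 (chr8:71537557-71537632) and Isg15 (chr4:156200845-156200926) are also on the minus strand, and that of Irf1 (chr11:53769894-53769962) is on the plus strand. The promoter of Isg15 held 3 overlapping matches to the first motif, and those of Bst2 and Ifitm3 held 2 each. The same 10 letters, GAAAAGGAAA, occurred in the promoters of Ifitm3, Ifitm2, and Isg15. These genes nonetheless differed widely in level, from 21.7 TPM for Isg15 to 1180 TPM for Ifitm3.

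Whether RvD1 changed the interferon genes was asked with edgeR's quasi-likelihood test over 14494 genes, of which 41 were members. Oas3, with a mean of 11 counts, had too few to be tested. None of the 41 members passed the test. The number with a Benjamini-Hochberg adjusted p under 0.05 was 0, and it was also 0 over all genes (0%), with a smallest adjusted p of 0.971 from edgeR. It was 0 among the members with DESeq2 and limma as well, and at an unadjusted p under 0.05 DESeq2 gave 0 members (3.27% of all genes) and limma with surrogate variables removed gave 5 of 42 (11.9%, beside 11.2% of all genes). At an unadjusted p under 0.05 from edgeR, 0 members were higher with RvD1, where 1.83% of all genes were, and 1 was lower (Oas1a), where 1.64% of all genes were. Log2 fold changes ranged from −0.68 to 0.41, and none exceeded 1 in size. Their median was 0.01, beside 0.014 over all genes tested. They lay below 0 for 19 of 41 members, where 46.5% of all genes did. On the log2(TPM + 1) scale they lay below 0 for 13 of 41 members and 32.1% of all genes, and with surrogate variables removed for 26 of 42 members and 47.5% of all genes. The groups did not overlap for 3 members that were higher with RvD1 (Ifnar1, Irf3, and Adar) and for 1 that was lower (Oas1a), beside 4.8% and 4.83% of all genes. With RvD1 replicate 1 left out, the log2 fold change was below 0 for 37 of 42 members and 49.7% of all genes, and without vehicle replicate 3 for 30 of 42 members and 46.8% of all genes. Without vehicle replicate 1 it was below 0 for 11 of 41 members and 46.3% of all genes.

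**Figure D2:**
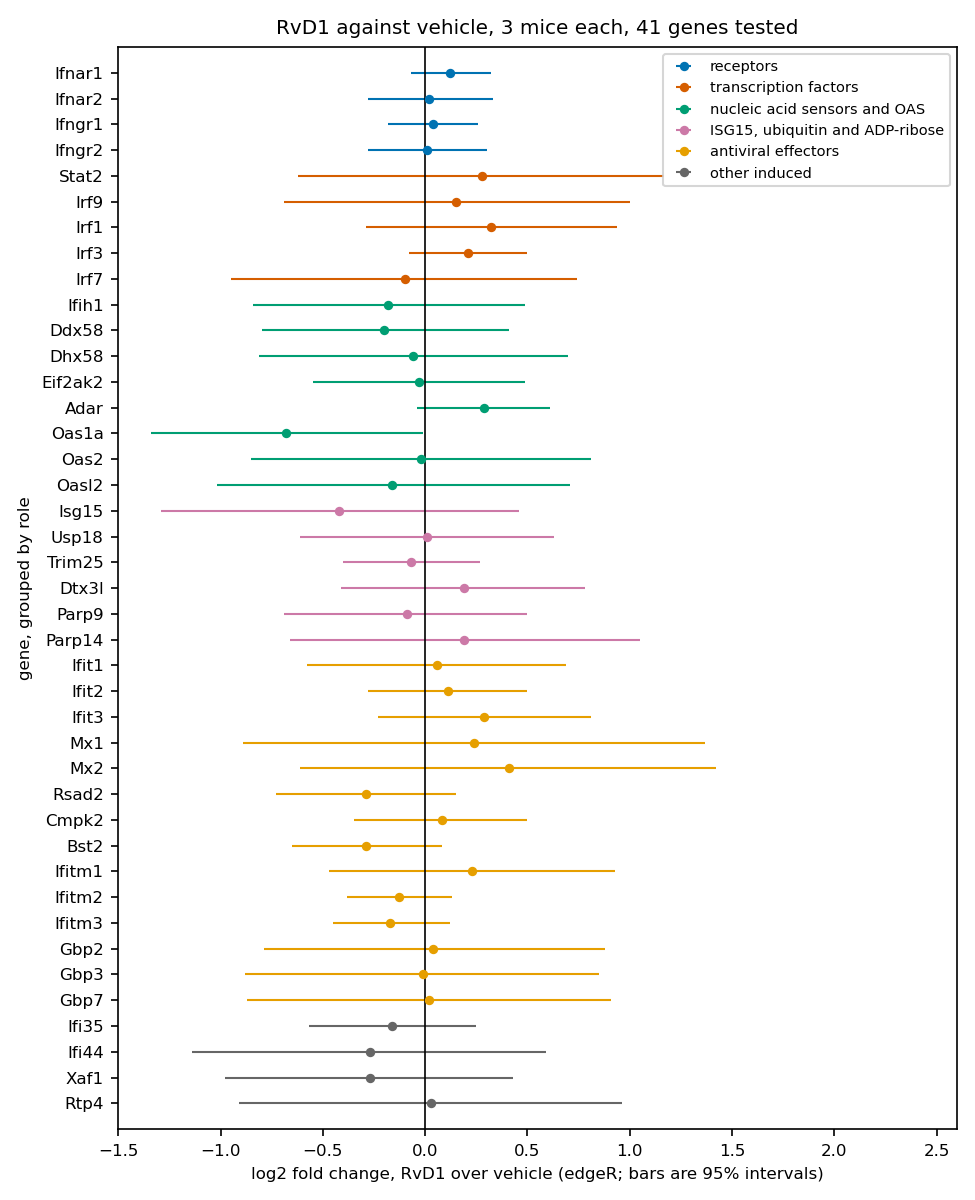
Log2 fold change of RvD1 over vehicle for the 41 genes tested, from edgeR, with 95% intervals over 3 mice per group, colored by role. Intervals include 0 for every gene but Oas1a, and those of the receptors are among the narrowest.

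The receptor chains were even among mice and between groups. Ifnar1 (ENSMUSG00000022967, chromosome 16 of GRCm38, 91485238 to 91507441) was at 53.6, 44.1, and 51.9 TPM in the RvD1 libraries and at 44.8, 40.7, and 41.1 TPM in the vehicle libraries. The groups overlapped in TPM and parted narrowly in CPM, with a log2 fold change of 0.12 (95% interval −0.07 to 0.32). Ifnar2, its partner chain, was at 43.5, 33.9, and 33.0 TPM with RvD1 and at 39.6, 38.1, and 33.8 TPM with vehicle, and the groups overlapped fully. Ifnar2 shares part of its locus and strand with the predicted gene Gm21970, so its reads could be divided between them. The chains for interferon-γ also overlapped between the groups. Ifngr1, the ligand-binding chain, was at 56.5, 49.1, and 51.0 TPM with RvD1 and at 45.8, 47.1, and 49.4 TPM with vehicle. Ifngr2, the signaling chain, was at 41.7, 37.1, and 47.6 TPM and at 29.4, 42.1, and 40.4 TPM in the same order. Log2 fold changes were 0.02 (−0.28 to 0.33) for Ifnar2, 0.04 (−0.18 to 0.26) for Ifngr1, and 0.01 (−0.28 to 0.30) for Ifngr2, with 95% intervals in parentheses. The highest and lowest libraries of the 4 chains differed by a median of 1.21-fold in CPM, against 1.47-fold for all genes tested.

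The transcription factors fell into a variable and an even set. Stat2, which carries the type I signal, was at 15.8, 7.13, and 6.69 TPM with RvD1 and at 11.6, 8.11, and 4.0 TPM with vehicle. Irf9, the DNA-binding part of that complex, was at 28.8, 11.7, and 12.3 TPM with RvD1 and at 21.2, 15.6, and 9.21 TPM with vehicle. In both groups replicate 1 was the highest library for these genes, and vehicle replicate 3 was the lowest. Irf9 overlaps Rnf31 on its strand, which limits how surely its reads can be assigned. Irf1, an early target of interferon-γ, was at 111, 47.9, and 68.0 TPM with RvD1 and at 72, 55, and 42.7 TPM with vehicle. Irf7, which amplifies type I interferon production, was at 17.8, 10.7, and 14.3 TPM with RvD1 and at 17.4, 18.5, and 7.64 TPM with vehicle. All 4 had ranges that overlapped between the groups. Irf3, which is present before any signal and is activated by phosphorylation, was instead at 43.1, 43.9, and 55.1 TPM with RvD1 and at 38.8, 40.4, and 36.5 TPM with vehicle. It was higher in each RvD1 library than in any vehicle library, but the difference did not pass the test (log2 fold change 0.21, standard error 0.13, edgeR adjusted p = 0.971). Bcl2l12 overlaps Irf3 on the other strand, and the library kit does not keep strand. Log2 fold changes were 0.28 (95% interval −0.62 to 1.17) for Stat2, 0.15 (−0.69 to 1.00) for Irf9, 0.32 (−0.29 to 0.94) for Irf1, and −0.10 (−0.95 to 0.74) for Irf7. The values for Stat2, Irf9, and Irf1 turned to −0.21, −0.41, and −0.02 without RvD1 replicate 1. Those for Stat2 and Irf9 also turned, to −0.02 and −0.07, without vehicle replicate 3. That for Irf7 turned to 0.12 without vehicle replicate 2, 0.11 without RvD1 replicate 2, and 0.08 without vehicle replicate 1.

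Of 8 tested genes for proteins that detect or act on viral RNA, 0 passed the test. Log2 fold changes lay below 0 for 7 of the 8, but for 3 of 8 on the log2(TPM + 1) scale and for 1 of 8 without vehicle replicate 1, so they had no stable direction. Oas1a (ENSMUSG00000052776, chromosome 5 of GRCm38, 120896256 to 120907521) makes the oligoadenylates that activate RNase L. It was at 1.61, 1.23, and 1.79 TPM with RvD1 and at 2.79, 1.94, and 2.21 TPM with vehicle. Every RvD1 library lay below every vehicle library, at a mean of 41.7 expected counts. The log2 fold change was −0.68 (standard error 0.29, edgeR unadjusted p = 0.0464, adjusted p = 0.971). Oas1a belongs to a cluster of near-identical copies, among which RSEM divides shared reads, so its level is uncertain. Adar, which edits adenosines in double-stranded RNA, was the member with the smallest unadjusted p among those higher with RvD1. It was at 7.93, 5.76, and 7.70 TPM with RvD1 and at 5.61, 5.57, and 5.49 TPM with vehicle. The SD of the vehicle libraries was 0.0611 TPM, and the RvD1 libraries lay above them, 1 of them narrowly (log2 fold change 0.29, standard error 0.14, edgeR unadjusted p = 0.0784, adjusted p = 0.971). The sensors Ddx58 (RIG-I), Ifih1 (MDA5), and Dhx58 (LGP2) were at 14.2, 4.41, and 4.12 TPM over all libraries, and the kinase Eif2ak2 (PKR) was at 8.22 TPM. For these 4 the groups overlapped, and the lowest CPM of each was in vehicle replicate 3. Of the other OAS genes, Oasl2 spanned 9.70 to 41.4 TPM among vehicle libraries alone, a range that held all the RvD1 values.

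Isg15 encodes a ubiquitin-like modifier and Usp18 the protease that removes it and dampens the receptor. Isg15 ranged from 13.1 to 28.1 TPM with RvD1 and from 11.8 to 33.0 TPM with vehicle. Usp18 ranged from 10.3 to 15.5 TPM with RvD1 and from 7.18 to 15.6 TPM with vehicle. For both genes the vehicle range held the whole RvD1 range, with vehicle replicate 1 highest and vehicle replicate 3 lowest. Dtx3l and Parp9, a ubiquitin ligase and its ADP-ribosyltransferase partner, had means of 13.5 and 21.7 TPM. These genes face each other from opposite strands over shared sequence, and counts without strand cannot fully separate them. Trim25, a ubiquitin ligase that acts on RIG-I, differed least between libraries among the 6 genes of this kind, from 16.1 to 26.4 TPM.

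Among 14 antiviral effectors, 0 passed the test, with 9 log2 fold changes above 0 and 5 below. Without RvD1 replicate 1 the split was 1 above and 13 below. Ifitm3 was at 1350, 1110, and 976 TPM with RvD1 and at 1360, 1210, and 1090 TPM with vehicle. Ifitm2 was at 437, 339, and 326 TPM with RvD1 and at 389, 377, and 369 TPM with vehicle. The ranges of both genes overlapped, at mean counts of 8840 and 2680. The 95% intervals ran from −0.45 to 0.12 for Ifitm3 and from −0.38 to 0.13 for Ifitm2 on the log2 scale. Their log2 fold changes of −0.17 and −0.13 became −0.28 and −0.25 without RvD1 replicate 1 (edgeR unadjusted p = 0.0174 and 0.0119, adjusted p = 0.967) and −0.06 and −0.05 without RvD1 replicate 3. Bst2 (tetherin), which holds budding virus at the cell surface, was at 42.3, 45.8, and 45.5 TPM with RvD1 and at 58.2, 56.8, and 39.5 TPM with vehicle. Rsad2 (viperin), which makes a chain-terminating nucleotide, was at 9.22, 8.45, and 15.4 TPM with RvD1 and at 13.1, 15.2, and 7.68 TPM with vehicle. Each had a log2 fold change of −0.29 on counts and an adjusted p of 0.971 from edgeR. With limma on log2(TPM + 1) the log2 fold change was −0.19 for Bst2 and −0.11 for Rsad2. The 2 scales differed for Rsad2 in RvD1 replicate 3, which was highest in TPM. In log2 CPM that library (4.382) lay below vehicle replicates 1 and 2 (4.757 and 4.898). Without vehicle replicate 3, the log2 fold changes of Bst2, Rsad2, and Isg15 were −0.44, −0.49, and −0.74, with unadjusted p of 0.0149, 0.00693, and 0.0483 and an adjusted p of 1.0 from edgeR. Isg15 was named there after its values were seen. Ifit1, Ifit2, and Ifit3, which bind foreign RNA and its translation machinery, had means of 12.6, 9.63, and 15.6 TPM, and Ifit3 has a close copy, Ifit3b, with which it may share reads. The dynamin-like GTPases Mx1 and Mx2 were near 1 TPM, with 18.6 and 37.4 counts on average, and their highest and lowest libraries differed by 4.97-fold and 3.93-fold in TPM. Gbp2, Gbp3, and Gbp7, guanylate-binding proteins that answer interferon-γ, had overlapping groups and differed among mice by 2.91-fold, 3.11-fold, and 3.16-fold in TPM. Of the genes with other or less defined roles, Ifi35, Ifi44, Xaf1, and Rtp4, means were 30.3, 3.25, 21.8, and 15.0 TPM, and the groups overlapped for each.

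What set the interferon-stimulated genes apart was how they varied from mouse to mouse. For the 37 members tested other than receptors, the highest library exceeded the lowest by a median of 2.18-fold in CPM, against 1.47-fold for all genes. Many of them, though not all, shared part of the order of libraries. RvD1 replicate 1 was the highest library for 21 of all 41 members (51.2%) and vehicle replicate 1 for 12 (29.3%), where these libraries were highest for 30.6% and 9.19% of all genes. Vehicle replicate 3 was the lowest for 27 members (65.9%), where it was for 19.2% of all genes. Relative to each gene's own mean, the 37 genes deviated by a median of 0.46 in RvD1 replicate 1, −0.23 in RvD1 replicate 2, and −0.20 in RvD1 replicate 3 on the log2 scale. In vehicle replicates 1, 2, and 3 the deviation was 0.35, 0.14, and −0.46. The libraries of both groups therefore ran from high to low, and the groups overlapped. The 4 receptors deviated by −0.08 to 0.09. Both libraries numbered 1 were the top pair for 20 of the 37 genes (54.1%), beside 14.4% of all genes, and 17 of the 37 (45.9%) also had vehicle replicate 3 lowest, beside 6.3%. These shares are a description, since genes that share a regulator are not independent, and the numbers are not stated to pair the mice.

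**Figure D3:**
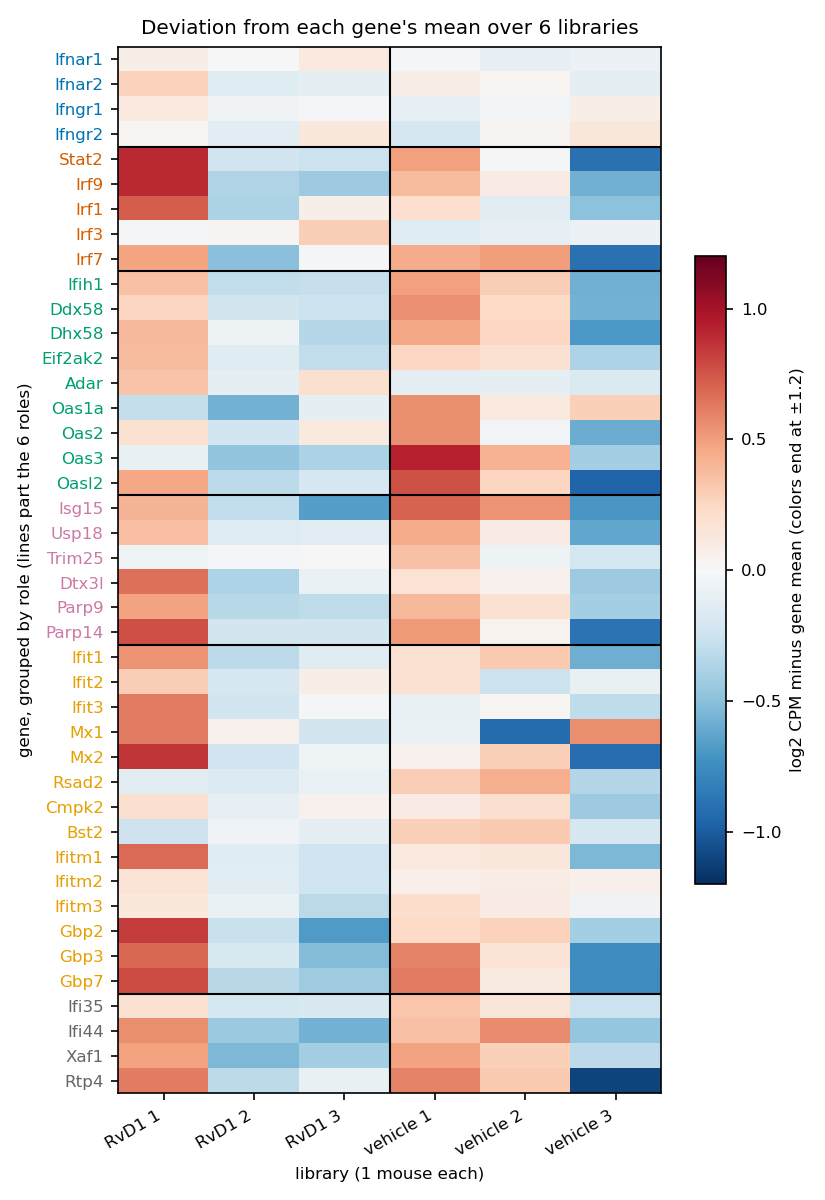
Log2 CPM of each gene minus its mean over the 6 libraries, in red where higher and in blue where lower, with genes grouped by role and the RvD1 libraries left of the vertical line. Columns RvD1 1 and vehicle 1 are mostly red and column vehicle 3 mostly blue from Stat2 downward, whereas the receptors at the top are pale.

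Other measures were set beside this order, and their part in it was not tested. Msc, one of the MuSC markers and a repressor of myogenic factors, was at 155 TPM in RvD1 replicate 1 and at 80.5 TPM in vehicle replicate 1, and at 23.4 to 35.8 TPM in the other 4 libraries. Chodl was at 123 TPM and 27.5 TPM in those 2 libraries and at 10.8 to 13.5 TPM in the others. Both were picked out after their values were seen, and the other MuSC markers were mixed. Pax7, Myf5, Vcam1, and Sdc4 were also highest in TPM in those 2 libraries, over smaller ranges. Myod1 was lowest there, at 239 and 325 TPM, against 343 to 470 TPM in the others. Cdh15, Itga7, and Des did not follow the order. The 6 fibro-adipogenic markers summed to 564 TPM in RvD1 replicate 1, 285 TPM in vehicle replicate 1, and 249 to 362 TPM in the others. The sum was thus high in RvD1 replicate 1 and not in vehicle replicate 1, and Dcn gave 450 TPM of it in RvD1 replicate 1. Dcn, Lum, Cd34, and Smoc2 were highest in that library, but Pdgfra was highest in RvD1 replicate 3. Ly6a was highest in vehicle replicate 1, at 39.7 TPM, against 25.4 TPM in RvD1 replicate 1. By replicate number, the leukocyte marker sums of the RvD1 group were 74.7, 51.5, and 52.5 TPM. Those of the vehicle group were 98.6, 68.4, and 115 TPM. In each group replicate 1 was above replicate 2, as for the interferon-stimulated genes, but vehicle replicate 3 was the highest library for these markers and the lowest for those genes. The sum of 8 endothelial markers was also highest in vehicle replicate 3, at 30.1 TPM, against 10.6 to 23.2 TPM in the others. Depth by replicate number was 21368812, 28149176, and 17962025 expected counts with RvD1. With vehicle it was 16148026, 17779765, and 18755643.

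**Figure D4:**
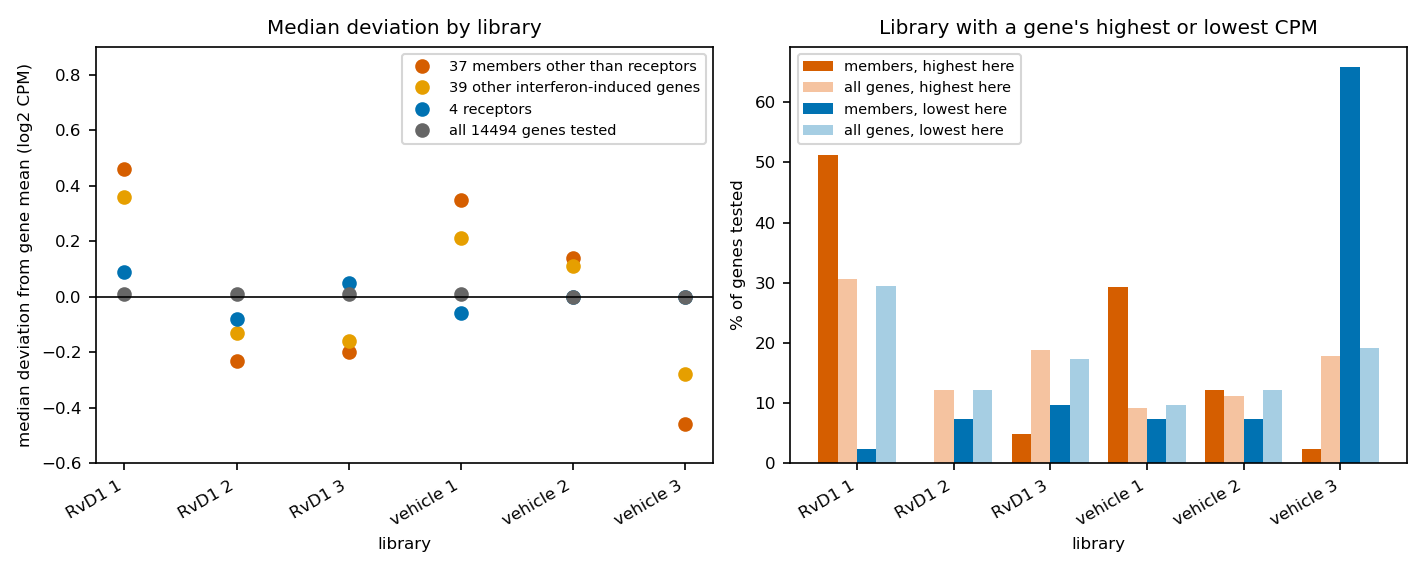
Left, median deviation from gene means by library (log2 CPM) for 37 members, 39 other interferon-induced genes, 4 receptors, and all 14494 genes tested. Right, the percentage of members and of all genes whose highest or lowest CPM falls in each library, with members highest in RvD1 replicate 1 (51.2%) and lowest in vehicle replicate 3 (65.9%) more often than all genes (30.6% and 19.2%).

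Further genes of the pathway were read from a list of 77 that holds no member. Of these, 59 had enough counts to be tested. In edgeR 0 of them had an adjusted p under 0.05, beside 0% of all genes. At an unadjusted p under 0.05 there were also 0, beside 3.47% of all genes. Jak1, the kinase shared by both receptor types, was at 115, 82.0, and 88.3 TPM with RvD1 and at 95.1, 86.8, and 76.1 TPM with vehicle. Tyk2, which serves the type I receptor, was at 11.3, 9.24, and 10.6 TPM with RvD1 and at 9.17, 8.59, and 8.76 TPM with vehicle. Jak2, which serves the interferon-γ receptor, was at 18, 13.0, and 11.1 TPM with RvD1 and at 12.9, 11.4, and 10.2 TPM with vehicle. For none of the kinases did the difference pass the test, with log2 fold changes of 0.06 for Jak1, 0.22 for Tyk2, and 0.21 for Jak2. That of Jak2 was 0.02 without RvD1 replicate 1 and 0.36 without RvD1 replicate 3 (edgeR unadjusted p = 0.043, adjusted p = 0.788). Ifnlr1, the receptor chain for interferon-λ, had 0 counts in every library. The inhibitors Socs1 and Socs3 were at 9.45 to 14.4 TPM and 26.6 to 68.1 TPM over the 6 libraries. For 39 other interferon-induced genes with enough counts, the median deviation by replicate number was 0.36, −0.13, and −0.16 with RvD1. With vehicle it was 0.21, 0.11, and −0.28. Both libraries numbered 1 were the top pair for 15 of the 39 (38.5%), beside 14.4% of all genes, and 13 (33.3%) also had vehicle replicate 3 lowest, beside 6.3%. The immunity-related GTPase Irgm1, chosen after its values were seen, was at 122 TPM in RvD1 replicate 1, 84.7 TPM in vehicle replicate 1, and 24.8 TPM in vehicle replicate 3.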

How the data were processed

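The authors aligned 76-bp single-ended reads of SMART-seq v4 libraries to mm10 with STAR 2.5.0a and quantified them with RSEM, per the study's methods and the submitters' processing notes. They deposited expected counts and TPM per gene, and the annotation release is not given in the sources used here. The deposited FPKM values were not used. One stray header line was removed. Expected counts were rounded, filtered with filterByExpr, scaled by TMM, and tested with edgeR 4.0.16 (glmQLFit, glmQLFTest, 3 libraries per group, Benjamini-Hochberg adjustment over 14494 genes) in R 4.3.3. The code was tested on simulated data. Intervals are 95%, and groups were called not overlapping on TMM-scaled CPM. Alternatives were DESeq2 1.42.0, RLE or no scaling, no filter, limma 3.58.1 with voom or on log2(TPM + 1) and log2(TPM + 0.1), surrogate variables removed with sva 3.50.0 as in the study's methods, a replicate block, and leaving out each library. Members and lists were chosen with earlier results of these data known. Log2 fold changes were given for the receptors, 5 transcription factors, the 3 smallest p in each direction, the 3 highest other members by TPM, Jak1, Jak2, Tyk2, and any gene passing the test, and a further gene of this rule is not reported here. Positions are from GRCm38.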

Additional observations from a re-analysis of the deposited data

How the results depend on the processing

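No interferon gene or other pathway gene had an adjusted p under 0.05 under any of the 15 alternatives. Over all genes, 12 passed without the low-count filter, and 0 to 1 when a library was left out (1 without RvD1 replicate 3). The number of members with an unadjusted p under 0.05 was 0 with DESeq2, library totals only, no low-count filter, limma-voom without surrogate variables, and the replicate block. Of all genes, 3.27%, 3.72%, 4.29%, 3.49%, and 6.18% had such a p, in the same order. The number of members was 5 with surrogate variables removed (11.9%, beside 11.2% of all genes), and 0 to 4 when a library was left out. It was 4 without RvD1 replicate 1 (9.52%, beside 4.33%) and 3 without vehicle replicate 3 (7.14%, beside 1.9%). It was 1 without RvD1 replicate 2 (2.38%, beside 6.83%) and 1 without RvD1 replicate 3 (2.38%, beside 4.61%). Without vehicle replicate 1 or 2 it was 0, beside 3.27% and 1.9% of all genes. Members whose groups did not overlap numbered 4 to 8 when a library was left out. They were 8 of 42 each without RvD1 replicate 1 and without vehicle replicate 3, where 20.0% and 16.3% of all genes did not overlap. Without RvD1 replicate 2 and without RvD1 replicate 3 they were 4 of 42 each, beside 23.2% and 20.9% of all genes. Without vehicle replicate 1 they were 5 of 41 and without vehicle replicate 2 they were 4 of 41, beside 21.4% and 15.2%. The median log2 fold change of the members went from 0.01 to −0.25 without RvD1 replicate 1 and to −0.19 without vehicle replicate 3, and to 0.14 without vehicle replicate 1. Of 270 values for 18 named genes, 249 kept their sign. Ifnar2 turned to −0.02 with surrogate variables removed and on both TPM scales, Irf9 to −0.08 with surrogate variables removed, and Irf7 to 0.04 on log2(TPM + 1) and 0.05 on log2(TPM + 0.1). When a library was left out, log2 fold changes ran from −0.12 to 0.10 for Ifnar2, −0.01 to 0.08 for Ifngr1, −0.08 to 0.09 for Ifngr2, −0.21 to 0.64 for Stat2, −0.41 to 0.38 for Irf9, −0.02 to 0.55 for Irf1, −0.44 to 0.12 for Irf7, and −0.06 to 0.12 for Jak1. The cause was not tested.

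Replicate numbers are not stated to pair the mice, and correlations of deviations between same-numbered libraries were 0.31, −0.001, and 0.126, so the numbers were not taken as pairs. Over all genes tested, RvD1 replicate 1 and vehicle replicate 1 were each other's closest library of the other group. The closest library to RvD1 replicate 3 was vehicle replicate 3, but the remaining libraries were closest to one of another number. With the replicate block, 0 genes and 0 members passed the test, and 896 genes had an unadjusted p under 0.05 against 503 without it. With 3 libraries per group the smallest p an exact permutation test can give is 0.1.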
